A study of Arabidopsis thaliana with 44 samples.

Results

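The 9 beta-tubulin genes of Arabidopsis thaliana, TUB1 to TUB9, were followed on the 12 Agilent microarrays of a study that compared microarrays with sequencing-based tag counting on shared RNA samples. The members were picked by gene name, with earlier results of these data known. A probe belonged to the family where its gene name in the scanner output was the locus code of a member, in any letter case. Each of the 9 genes had 1 probe among 21500 gene probes. The loci were AT1G75780 (TUB1), AT5G62690 (TUB2), AT5G62700 (TUB3), AT5G44340 (TUB4), AT1G20010 (TUB5), AT5G12250 (TUB6), AT2G29550 (TUB7), AT5G23860 (TUB8) and AT4G20890 (TUB9).

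Total RNA came from actively growing callus, from inflorescences of immature buds at mixed stages, from untreated leaves and untreated roots harvested at 21 days, and from siliques at 24 to 48 h after fertilization. Callus, inflorescence, leaf and root were each hybridised to 2 self-self microarrays, on which the same RNA carried both dyes. Root against leaf and silique against inflorescence were each hybridised to 2 non-self microarrays, with root or silique in the red (Cy5) channel and leaf or inflorescence in the green (Cy3) channel on all of them. Arrays A and B of a type were technical replicates of 1 RNA sample, so every error and p-value here covers labelling and hybridisation and not differences between plants.

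Microtubules are hollow filaments built from dimers of 1 alpha- and 1 beta-tubulin. The beta subunit carries the exchangeable GTP whose hydrolysis makes the filament end switch between growth and shrinkage. In plant cells microtubules form the cortical arrays that guide cellulose deposition during elongation, and the preprophase band, spindle and phragmoplast of dividing cells. TUB2 and TUB3 are neighbouring genes in the reference annotation and share the array description of a tubulin beta-2/beta-3 chain, and they are known to encode the same protein. The probe letters were not used here, so how far a probe also bound transcripts of other family members was not tested, and no probe's level was set against another probe's.

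All 216 channel readings of the 9 probes were well above background and 0 were saturated, with raw signals between 2.32 and 911 times the local background. The lowest value came from a TUB1 spot, in the red (silique) channel of silique/inflorescence array B, and the highest from a TUB2 spot. That channel was weaker than on the other microarrays. Only 76.0% and 70.5% of probes were well above background in red on silique/inflorescence arrays A and B. The lowest red share on any other array was 97.4%, on callus array B. The scanner software marked 2 of the 216 readings as feature outliers, the green TUB2 spots of both callus microarrays, and TUB2 therefore had no main value in comparisons with callus. The leaf, root and flower marker sums were each highest in the tissue of their label, but some sums elsewhere were raised. Flower genes (5 probes) summed to 279 and 224 NEU in callus, against 36.0 and 35.4 in leaf and 1338 and 1287 in inflorescence. Of these 5, 1 was called higher and 1 lower in callus than in leaf. Photosynthesis genes (5 probes, Rubisco small subunits and light-harvesting and photosystem proteins) summed to 3741 NEU on root array A and 198 NEU on root array B, against 6911 and 7350 NEU on the leaf arrays. NEU, the Normalized Expression Unit, is a probe's signal averaged over both dyes divided by the sum over all gene probes on that microarray and multiplied by 1000000. On root array A the excess was larger in the green channel (5682 NEU of that channel) than in the red (1648 NEU), so the called differences that rest on the root self-self arrays are also given without array A. Slide series were inferred here from the first digits of the barcodes in the file headers. By that grouping both root arrays and leaf array B fell in 1 series and all other arrays in another. Callus and inflorescence then share no inferred slide series with root. By the software extraction day in the file headers, root, leaf and root/leaf arrays shared a day, as did callus and inflorescence arrays. The silique/inflorescence arrays had a day of their own. Between these sets the extraction day and the tissue cannot be told apart. In whole organs, fewer cells of a type and less RNA per cell cannot be told apart either.

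Across the 4 tissues on self-self microarrays, the beta-tubulin genes did not share 1 pattern. By mean NEU, 5 of 9 genes were highest in inflorescence (TUB2, TUB3, TUB5, TUB6 and TUB7), 3 in root (TUB1, TUB4 and TUB9) and 1 in leaf (TUB8). Callus was lowest for 5 genes and leaf for 4, with TUB2 ranked over the 3 tissues where it had a value. The ratio of the highest to the lowest tissue mean ran from 1.27 for TUB4 to 5.99 for TUB1.

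**Figure D1:**
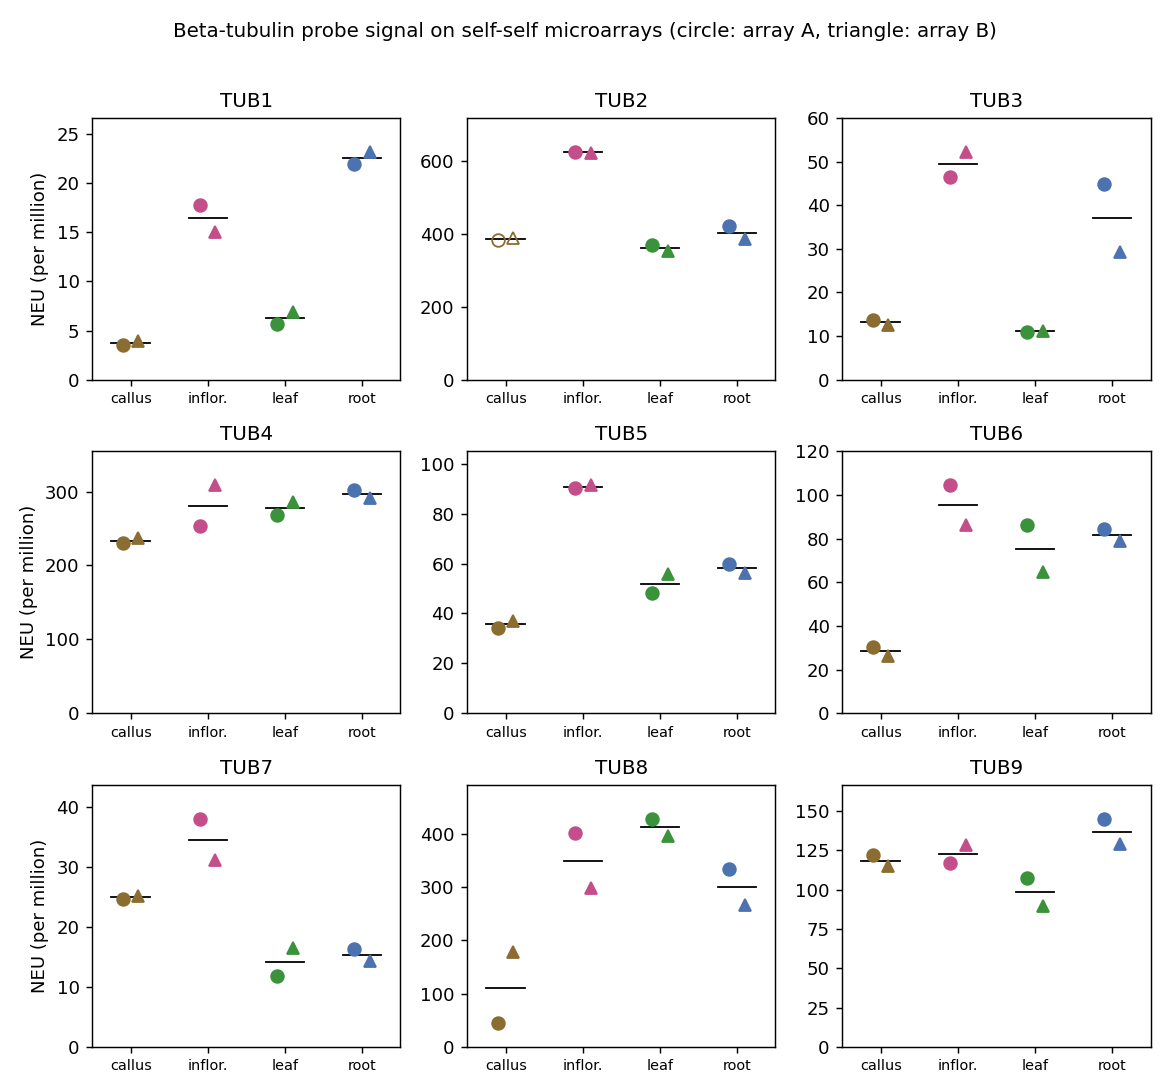
Signal of each beta-tubulin probe in NEU (linear axis from 0, a scale of its own for each gene) on the 8 self-self microarrays. Circles are array A, triangles array B, bars the mean of both, and open symbols the TUB2 callus arrays with a spot marked as an outlier. TUB8 has the widest gap between arrays, 44.0 and 178 NEU in callus.

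TUB1, long known for transcripts that are abundant in roots, had the widest range. Its probe read 21.9 and 23.2 NEU on root arrays A and B, and 17.8 and 15.0 NEU on the inflorescence arrays. It read 5.71 and 6.94 NEU in leaf and 3.56 and 3.97 NEU in callus. Root and inflorescence arrays thus stood above all leaf and callus arrays without overlap. Root exceeded leaf 3.58-fold (log2 1.84 ± 0.19 SE, limma, adjusted p = 0.00113), and 3.68-fold without root array A. Inflorescence exceeded leaf 2.60-fold (adjusted p = 0.00298). The neighbours at the top of the order, root and inflorescence, did not pass the test (log2 inflorescence over root -0.46, limma adjusted p = 0.0902). Callus was 6.00-fold below root (limma adjusted p = 0.000239; log2 -2.62, adjusted p = 0.00166, without root array A). At the bottom, callus was 1.67-fold below leaf (log2 -0.74, limma adjusted p = 0.0183), but under quantile normalization the difference was -0.24 with an adjusted p of 0.373, and the call was also lost without callus array A (adjusted p = 0.0803) or leaf array B (adjusted p = 0.0719).

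TUB2 and TUB3 both peaked in inflorescence and differed in the depth of their minimum. TUB2 read 625 and 622 NEU in inflorescence, 422 and 385 NEU in root, and 369 and 353 NEU in leaf. Its callus readings were 384 and 388 NEU with the marked spots included, inside the range of root and leaf. Inflorescence exceeded leaf 1.73-fold (limma adjusted p = 0.00808) and root 1.55-fold (limma adjusted p = 0.0126), while root and leaf did not differ beyond the spread (log2 0.16, limma adjusted p = 0.409). The call against leaf was lost without inflorescence array B (adjusted p = 0.0561), and that against root without either inflorescence array or root array B (adjusted p = 0.0528 to 0.0685). Without root array A inflorescence exceeded root 1.62-fold (adjusted p = 0.0264). In the red channel alone, where no spot was marked, callus was 1.63-fold below inflorescence (log2 -0.71, limma adjusted p = 0.00722), and callus differed from leaf by 0.04 and from root by -0.08 on the log2 scale without passing the test.

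TUB3 read 46.6 and 52.2 NEU in inflorescence, 44.9 and 29.2 NEU in root, 13.7 and 12.6 NEU in callus, and 11.0 and 11.1 NEU in leaf. Inflorescence and root formed a high set and callus and leaf a low set, with no overlap between the sets. Inflorescence exceeded leaf 4.46-fold (log2 2.16 ± 0.23 SE, limma adjusted p = 0.00115) and callus 3.76-fold (limma adjusted p = 0.000831). Root exceeded leaf 3.27-fold (log2 1.71, limma adjusted p = 0.00256), with the higher root reading on array A, and 2.64-fold without that array (limma adjusted p = 0.00422). Inflorescence over root was 0.45 on the log2 scale and did not pass (adjusted p = 0.149), whereas without root array A it was 0.76 and passed (adjusted p = 0.0209). Callus was 2.76-fold below root (adjusted p = 0.00294; log2 -1.15, adjusted p = 0.00607, without root array A). Callus and leaf, the lowest neighbours, did not differ beyond the spread (log2 0.25, adjusted p = 0.397).

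TUB5 and TUB6 were lowest in callus. TUB5 read 34.1 and 37.1 NEU in callus against 90.1 and 91.3 NEU in inflorescence. Leaf (48.0 and 55.7 NEU) and root (59.9 and 56.3 NEU) lay between. The order was inflorescence, root, leaf, callus, and root and leaf alone among the neighbours did not differ beyond the spread (log2 0.17, limma adjusted p = 0.416). Callus was 2.55-fold below inflorescence (log2 -1.35 ± 0.15 SE, limma adjusted p = 0.000536), 1.63-fold below root (adjusted p = 0.00816) and 1.45-fold below leaf (adjusted p = 0.0207). Inflorescence exceeded leaf 1.75-fold (adjusted p = 0.00668) and root 1.56-fold (adjusted p = 0.0117). The TUB5 call against leaf was lost for callus without either callus array or leaf array B (adjusted p = 0.0557 to 0.104) and for inflorescence without its array B (adjusted p = 0.0537), and inflorescence against root was lost without either inflorescence array (adjusted p = 0.0623 and 0.0711). With no scaling between arrays callus no longer passed against root (log2 -0.39, adjusted p = 0.0821) or leaf (-0.32, adjusted p = 0.137). Without root array A both root comparisons passed, at log2 -0.66 for callus (adjusted p = 0.0276) and 0.69 for inflorescence (adjusted p = 0.0245).

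TUB6, whose transcript has served as a reference in expression assays, read 30.6 and 26.1 NEU in callus. In the other tissues its arrays overlapped, at 104 and 86.1 NEU in inflorescence, 86.3 and 64.7 NEU in leaf, and 84.5 and 79.1 NEU in root. Callus was 3.35-fold below inflorescence (limma adjusted p = 0.000678), 2.89-fold below root (adjusted p = 0.00155) and 2.64-fold below leaf (adjusted p = 0.00166). Without root array A callus over root was -1.48 (adjusted p = 0.00705). None of the 3 comparisons among inflorescence, leaf and root passed (limma adjusted p = 0.215 to 0.65), but in the red channel alone inflorescence over leaf was 0.56, against 0.34 in the main fit, and passed (adjusted p = 0.0464).

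Among the 8 members with a callus value, TUB7 was the 1 called higher in callus than in leaf or root. It read 24.8 and 25.3 NEU in callus and 38.1 and 31.2 NEU in inflorescence, against 11.9 and 16.5 NEU in leaf and 16.3 and 14.3 NEU in root. All callus and inflorescence readings stood above all leaf and root readings. Inflorescence exceeded leaf 2.46-fold (limma adjusted p = 0.00507) and root 2.26-fold (adjusted p = 0.00516), or 2.41-fold without root array A (adjusted p = 0.0123). Callus exceeded leaf 1.79-fold (adjusted p = 0.0172) and root 1.64-fold (adjusted p = 0.0317), and the call against root was lost without any 1 of the 4 callus and root arrays (adjusted p = 0.0507 to 0.111, the log2 difference without root array A being 0.81). The call against leaf was lost without either callus array or leaf array A (adjusted p = 0.0601 to 0.0679). Inflorescence against callus (log2 callus over inflorescence -0.46, adjusted p = 0.149, or -0.70 and 0.0427 in the red channel alone) and root against leaf (log2 0.13, adjusted p = 0.687) did not pass.

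TUB8 carried the largest disagreement between technical replicates. Callus arrays A and B read 44.0 and 178 NEU, a 4.05-fold gap that 1.85% of all gene probes exceeded on the same arrays. Leaf read 428 and 397 NEU, inflorescence 401 and 298 NEU, and root 334 and 267 NEU, so that both callus arrays lay below every other array while the other tissues overlapped. Callus was called 4.65-fold below leaf (log2 -2.22 ± 0.59 SE, limma adjusted p = 0.02), 3.90-fold below inflorescence (adjusted p = 0.0404) and 3.37-fold below root (adjusted p = 0.046). Without callus array A the log2 differences shrank to -1.21 against leaf, -0.96 against inflorescence and -0.74 against root, and the last no longer passed (adjusted p = 0.0748). Without callus array B they grew to -3.23, -2.97 and -2.76. Each of the 3 calls was lost when either array of the other tissue was left out (adjusted p = 0.0672 to 0.172), and callus over root was -1.59 without root array A (adjusted p = 0.137). With the replicate block the calls against root (adjusted p = 0.0658) and inflorescence (adjusted p = 0.0618) were lost. The call against root was also lost with slide series as a block (adjusted p = 0.0949), and with no scaling between arrays or 75th percentile scaling both were lost (adjusted p = 0.0508 to 0.0785). The 3 comparisons among leaf, inflorescence and root did not pass (adjusted p = 0.584 to 0.791).

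TUB4 and TUB9 passed in no comparison between tissues on self-self arrays when both channels were averaged. TUB4, in which mutations are known to twist organ growth, read 230 and 237 NEU in callus, 253 and 308 NEU in inflorescence, 268 and 286 NEU in leaf, and 301 and 292 NEU in root. Callus was the lowest tissue without overlap, and its largest difference, against root, was -0.35 on the log2 scale (limma adjusted p = 0.0868). TUB9, known for a promoter active in pollen, read 145 and 129 NEU in root, 117 and 128 NEU in inflorescence, 122 and 115 NEU in callus, and 108 and 89.6 NEU in leaf. Its largest difference, root over leaf, was 0.48 on the log2 scale and missed the threshold (unadjusted p = 0.0193 in the same limma fit, adjusted p = 0.0572), the 1 of these 12 comparisons under 0.05 unadjusted, and it was 0.39 without root array A (adjusted p = 0.161). It passed in the red channel alone (0.58, adjusted p = 0.0276), with slide series as a block (0.51, adjusted p = 0.0481) and without leaf array A (0.61, adjusted p = 0.0494). Single channels gave 3 further calls with inflorescence. In red, TUB9 was higher in inflorescence than in leaf (0.66, adjusted p = 0.0151, against 0.32 in the main fit) and TUB4 was lower in callus than in inflorescence (-0.56, adjusted p = 0.0286). In green, TUB4 was lower in inflorescence than in root (-0.43, adjusted p = 0.0448). TUB9 in green read 100 and 109 NEU of that channel in inflorescence, against 120 and 94.5 NEU in leaf, which overlap. Both genes read higher in red than in green on the inflorescence self-self arrays, as given below, so these single-channel calls depend on the channel.

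The calls were also counted by comparison beside those of all probes. Against leaf, inflorescence was higher for 5 of 9 members (TUB1, TUB2, TUB3, TUB5 and TUB7) and lower for 0, where 38.7% of all tested probes were called in either direction, 21.1% higher and 17.6% lower. In the red channel alone 7 members were called higher, TUB6 and TUB9 added. Those added genes also read higher in red than in green on the inflorescence self-self arrays. In the green channel alone 5 members were called higher. The members' median was 0.79 on the log2 scale, and the median of all probes was -0.03. Against root, inflorescence was higher for 3 of 9 (TUB2, TUB5 and TUB7), and lower for 0, where 48.6% of probes were called, 22.3% higher and 26.4% lower, so the 3 calls were a smaller share than among all probes. The member median was 0.21 beside -0.09 for all probes.

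Callus was below inflorescence for 5 of the 8 members with a value (TUB1, TUB3, TUB5, TUB6 and TUB8), where 37% of probes were called and 21.5% lower, and the member median was -1.55 beside -0.09. Callus was below root for 5 of 8 and above it for 1 (TUB7), where 51.3% were called, 32% lower and 19.3% higher, with medians of -1.09 and -0.27. Against leaf, callus was lower for 4 (TUB1, TUB5, TUB6 and TUB8) and higher for 1 (TUB7) of 8, where 52.5% were called, 28% lower and 24.6% higher, with medians of -0.39 and -0.21. Root against leaf gave 2 calls of 9, both higher in root, where 32% were called, 19% higher and 13% lower, with medians of 0.16 and 0.20. Counted in either direction, the shares of members called against leaf in callus and root were near or below those of all probes. Counting lower calls only, the 4 of 8 in callus against leaf were a larger share than the 28% of all probes. These comparisons share arrays with one another and are not independent.

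**Figure D2:**
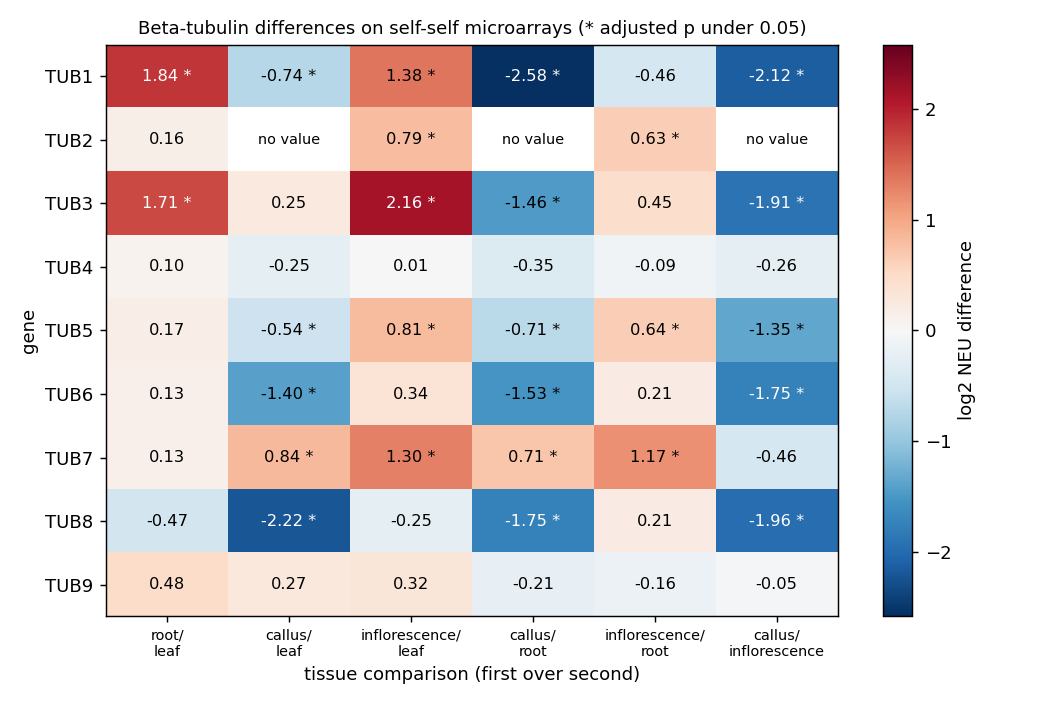
Difference in log2 NEU between tissues for each beta-tubulin gene (rows) in the 6 comparisons of self-self microarrays (columns, first tissue over second), with colour from blue (lower) to red (higher) and an asterisk where limma's adjusted p was under 0.05. TUB4 and TUB9 carry no asterisk, and the callus columns hold values down to -2.58 for TUB1.

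On the root/leaf non-self microarrays, where both RNAs competed for the same spot, 5 of 9 members were higher in root (TUB1, TUB2, TUB3, TUB7 and TUB9) and 0 were lower. Of all probes 69.6% were called in this comparison, 38.7% higher and 30.8% lower, so the count of 5 in either direction was no larger a share than among all probes. The members' median log2 ratio was 0.22 beside 0.03 for all probes.

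TUB1 again had the largest ratio. Its log2 ratios were 2.29 and 2.12 on arrays A and B, from processed signals of 1939 and 1623 for root and 396 and 374 for leaf. The fitted ratio was 4.61-fold (log2 2.21 ± 0.05 SE, limma adjusted p = 5.83e-09), and 7.46% of all probes had a ratio of greater size.

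TUB3 had log2 ratios of 0.88 and 0.71 (1.74-fold, limma adjusted p = 1.33e-05). TUB2 had log2 ratios of 0.81 and 0.51 (1.58-fold, limma adjusted p = 0.000115), fitted over 10 arrays because its callus spots were left out. The neighbouring genes therefore gave like ratios on these arrays, whereas on the self-self arrays TUB3 was 3.27-fold and TUB2 1.12-fold higher in root than in leaf. The difference between the 2 kinds of microarray was not tested. The leaf reading of TUB3 in the green channel was 15.5 and 19.8 NEU of that channel on the non-self arrays, above the 11.0 and 11.1 NEU on the leaf self-self arrays.

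TUB7 had log2 ratios of 0.40 and 0.21 (1.24-fold, limma adjusted p = 0.000253) and TUB9 of 0.16 and 0.28 (1.16-fold, limma adjusted p = 0.00807). The TUB9 call was lost without array B (adjusted p = 0.127) and with another background correction and normalization, normexp with loess (log2 0.11, adjusted p = 0.0753). The remaining 4 members lay close to an equal signal. TUB4 read -0.10 and 0.03, TUB5 0.07 and 0.10, TUB6 0.08 and 0.13, and TUB8 -0.07 and -0.03 on the log2 scale (limma adjusted p = 0.0736 to 0.579). With normexp and loess TUB4 (-0.14, adjusted p = 0.0185) and TUB8 (-0.17, adjusted p = 0.000613) were called lower in root. With the mean red over green ratio of the leaf and root self-self arrays subtracted, an alternative chosen after seeing the data, TUB9 rose to 0.44 (limma adjusted p = 0.000616), and TUB5 (0.18, adjusted p = 0.0076) and TUB6 (0.30, adjusted p = 0.00752) were called higher in root. That mean includes root array A. On this array red over green correlated with the root/leaf ratio over probes at 0.62, against 0.003 on root array B. The subtracted mean may therefore hold more than a dye difference, and a version without root array A was not run.

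**Figure D3:**
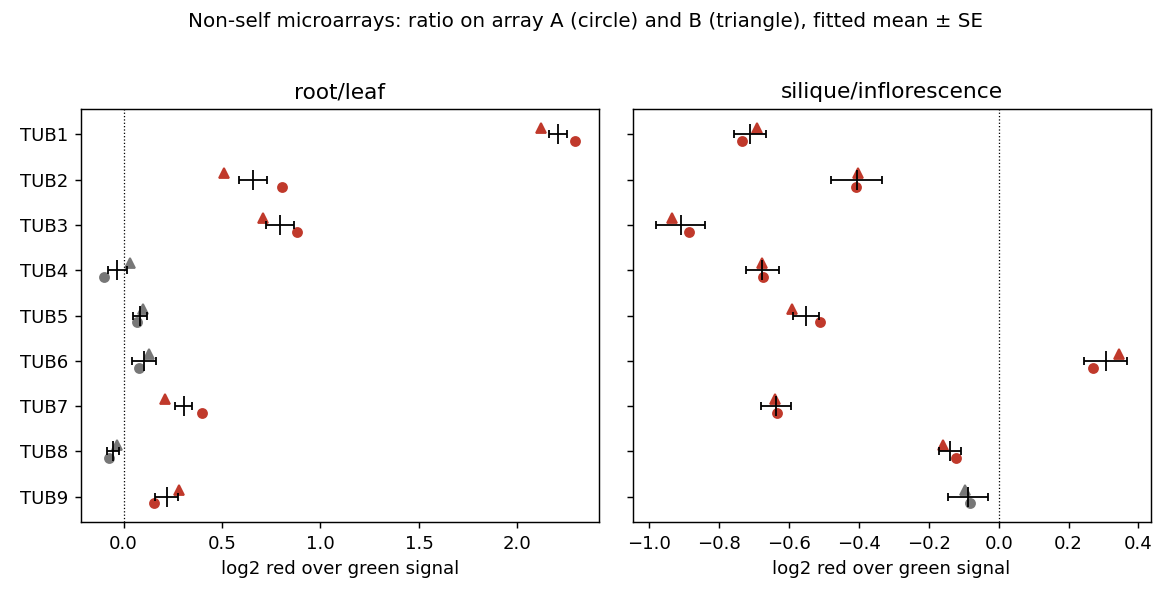
Log2 ratio of red over green signal (horizontal axis, a scale of its own in each panel) for the 9 beta-tubulin genes on the root/leaf (left) and silique/inflorescence (right) non-self microarrays. Circles are array A, triangles array B, the vertical tick and bar the fitted mean ± SE, and red marks an adjusted p under 0.05. TUB1 stands apart in root/leaf at 2.21, and TUB6 alone lies right of 0 in silique/inflorescence.

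On the silique/inflorescence non-self microarrays 8 of 9 members were called, 7 lower in silique (TUB1, TUB2, TUB3, TUB4, TUB5, TUB7 and TUB8) and 1 higher (TUB6). Of all probes 65.5% were called, 32.6% lower and 32.9% higher. The members' median log2 ratio was -0.55, and that of all probes was 0. The silique channel was weak, with a median raw signal over probes of 3.20 and 2.59 times the background on arrays A and B. TUB1 read 2.58 and 2.32 times the background there. With only probes well above background kept, 7 members were again lower and 1 higher, where 77.6% of probes were called. The effect of the weak signal on the size of the ratios was not tested.

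TUB3 had the lowest ratio without a dye correction, with log2 ratios of -0.89 and -0.93, a silique level 1.88-fold below inflorescence (limma adjusted p = 7.31e-06). TUB1 had ratios of -0.73 and -0.69 (1.64-fold lower, limma adjusted p = 2.32e-06). TUB4 had ratios of -0.68 on both arrays (1.60-fold lower, limma adjusted p = 4e-06). TUB4 passed here although it passed in no self-self comparison, none of which held silique.

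TUB7 had ratios of -0.63 and -0.64 (1.56-fold lower, limma adjusted p = 3.09e-06) and TUB5 of -0.51 and -0.59 (1.47-fold lower, adjusted p = 2.98e-06). TUB2 followed at -0.41 and -0.40 (1.33-fold lower, limma adjusted p = 0.00181). TUB8 changed least among those called, at -0.12 and -0.16 (1.10-fold lower, limma adjusted p = 0.00418), and its call was lost without array B (adjusted p = 0.0507). TUB6 moved the other way, at 0.27 and 0.34 (1.24-fold higher in silique, adjusted p = 0.00222). TUB9 read -0.08 and -0.10 and did not pass (adjusted p = 0.203).

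Both arrays of each non-self type carried the same dye assignment, so a dye difference for a probe could be measured on self-self arrays only. For inflorescence RNA in both channels, 5 members read higher in red by more than the other self-self tissues did, where 4.64% of all probes passed that test (limma adjusted p = 0.00141 to 0.0208). TUB7 had log2 red over green of 0.55 and 0.57, TUB4 of 0.52 on both, TUB9 of 0.41 and 0.40, TUB5 of 0.31 and 0.28, and TUB6 of 0.22 and 0.26. On callus, leaf and root self-self arrays the means of these 5 lay between -0.29 and 0.08. The other 4 members lay between -0.18 and 0.09 as means on the inflorescence arrays. With the inflorescence dye difference of each probe subtracted, also chosen after seeing the data, TUB7 and TUB4 moved from -0.64 and -0.68 to -1.20 and -1.19. TUB5 moved to -0.85, TUB1 to -0.77 and TUB3 to -0.73, so TUB3 was then no longer lowest but behind those 4 genes. TUB9 moved to -0.49 and passed as lower in silique (adjusted p = 0.000915), and TUB6 moved to 0.06 and no longer passed (adjusted p = 0.558). Under that setting 8 members were lower in silique and 0 higher, where 57% of all probes were called. The inflorescence self-self and silique/inflorescence arrays also differed in extraction day and software version. What the subtracted ratio holds besides a dye difference was not tested. With the mean ratio of all self-self arrays subtracted, as planned, TUB2 had no value. There 6 members were lower, TUB6 stayed higher and TUB9 did not pass, where 63.5% of probes were called.

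**Figure D4:**
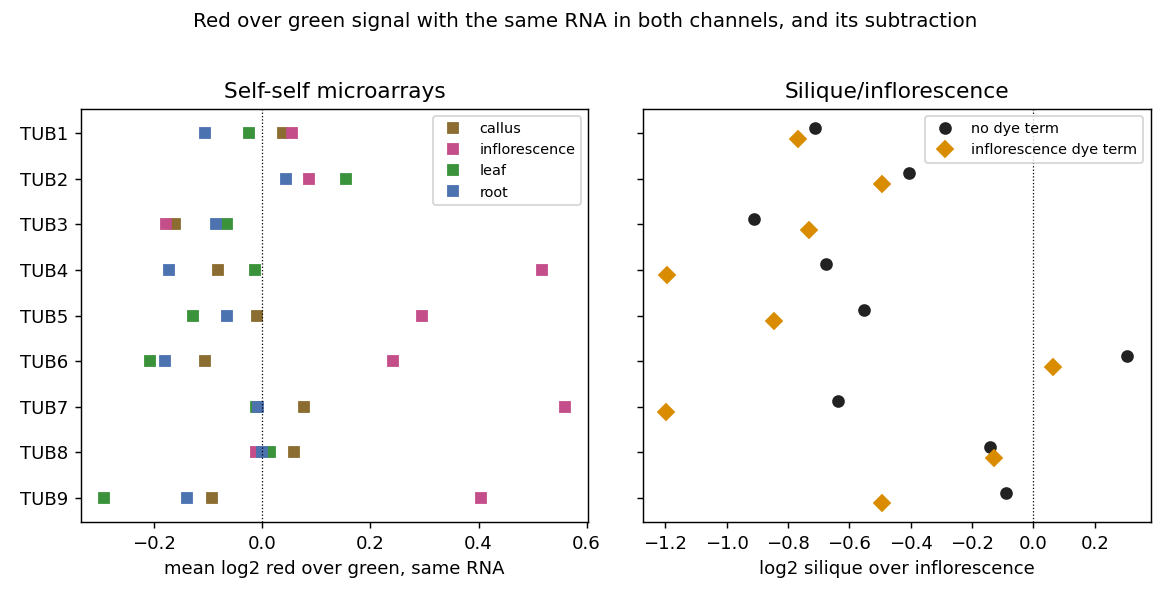
Left, mean log2 ratio of red over green signal for each beta-tubulin gene on self-self microarrays of callus, inflorescence, leaf and root, where both channels held the same RNA. Right, the log2 silique over inflorescence ratio without (circles) and with (diamonds) subtraction of the inflorescence self-self ratio; TUB4 and TUB7 reach -1.19 and -1.20 and TUB6 comes to 0.06.

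Markers of dividing cells were read in the same comparisons. All 5 (the mitotic cyclins CYCB1;1 and CYCB1;2, the kinases CDKB1;1 and CDKB2;1, and the cell plate syntaxin KNOLLE) were higher in root than in leaf on the non-self arrays, with a median log2 ratio of 1.12, and all 5 were lower in silique than in inflorescence, with a median of -1.31. Their summed level was 374 and 465 NEU in inflorescence, 195 and 180 NEU in root, 175 and 204 NEU in callus, and 86.6 and 85.0 NEU in leaf. Callus overlapped root in these markers. In callus against root 5 of 8 beta-tubulin genes were called lower and 1 higher, where 32% of all probes were called lower and 19.3% higher. In callus against leaf all 5 division markers were higher in callus, with a median log2 difference of 1.04. There 4 of 8 beta-tubulin genes were called lower and 1 higher, with a median of -0.39. Of all probes 28% were called lower and 24.6% higher in that comparison. Of 5 pollen markers, 4 were lower in silique than in inflorescence (median -1.72). Flower organ genes were lower in silique for 4 of 5 (median -1.22), fruit and ovule genes were higher for 4 of 4 (median 2.35), and photosynthesis genes were higher for 3 of 5 (median 1.20). The part of these cell types in the beta-tubulin ratios was not tested.

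The other genes of the microtubule system on a list of 35, of which 32 had a probe, were read in the same way. On the root/leaf non-self arrays 19 were higher in root, 5 were lower and 8 did not pass, and the median log2 ratio was 0.39. Among all probes 69.6% were called, 38.7% higher and 30.8% lower. On the silique/inflorescence arrays 5 were higher in silique, 22 were lower and 5 did not pass, with a median of -0.25. Among all probes 65.5% were called, 32.9% higher and 32.6% lower. The alpha-tubulins, the partners of the beta subunit in the dimer, split in root against leaf. TUA2 (log2 0.84, limma adjusted p = 0.000767) and TUA4 (0.56, limma adjusted p = 0.0476) were higher in root, and TUA1 (-0.84, adjusted p = 4.59e-07) and TUA3 (-0.28, adjusted p = 0.002) were lower. In silique 5 of 6 alpha-tubulins were lower than in inflorescence.

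The gamma-tubulins TUBG1 and TUBG2 and the complex proteins GCP2 and GCP3, which nucleate new filaments, were lower in silique, at log2 ratios of -0.72, -0.36, -0.27 and -0.23. NEDD1, the other gene of the nucleation list, read 0.07 and did not pass (limma adjusted p = 0.162). Among the cofactors that fold tubulin and join its subunits, 3 of 5 were higher in root (TFCA, TFCB and TFCE, log2 0.63, 0.70 and 0.46). In silique TFCA was higher (0.68, limma adjusted p = 3.77e-05), 3 cofactors were lower (TFCB, TFCC and TFCD, -0.08, -0.24 and -0.17) and TFCE did not pass. The associated proteins gave the largest ratios. In root over leaf these were MAP18, a destabilizing protein, at 2.66, MAP70-5, known from secondary wall formation, at 2.23, MAP65-2, a bundling protein, at 1.54, the plus-end protein EB1B at 1.43 and the spindle protein TPX2 at 1.16. Each gene was ranked once, by the larger of its ratios on the 2 non-self types. The next in that ranking was the alpha-tubulin TUA5, in silique over inflorescence at -1.09 (limma adjusted p = 1.66e-07).

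Likeness was measured as a distance over 6 values per probe. These were the log2 NEU of the 4 tissues, each less their mean, and the mean log2 ratios of both non-self types. The distance to the nearest other member ranged from 0.74 (TUB4 and TUB9) to 1.72 (TUB1 and TUB3), and between 52 and 2844 of 14722 other probes lay nearer. Far more other probes than members were compared, so these counts cannot show whether members resembled one another more than other genes. TUB2 had no distance because of its marked spots. The nearest gene to TUB4 was HSC70-1, a cytosolic heat shock chaperone, at a Euclidean distance of 0.18. The nearest to TUB6 was GAE6, annotated on the array as an epimerase, at 0.15, and the nearest to TUB8 was OCT5 at 0.41. For the others the nearest loci carried no symbol: AT5G01610 for TUB1 (0.65), AT3G14190 for TUB3 (0.59), AT1G15470 for TUB5 (0.12), AT1G15370 for TUB7 (0.15) and AT2G42290 for TUB9 (0.13).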

How the data were processed

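Two-colour 60-mer microarrays were analysed, 12 arrays in 6 types of 2. Per the labels and file headers, the authors amplified and dye-labelled total RNA, scanned the arrays and processed them with Agilent Feature Extraction (version 6.1.1, or 7.1.1 for silique/inflorescence, in the headers and 8.1 in the submitters' notes). The deposited processed intensity of each channel is background-corrected and dye-normalized by that software, and the authors' log10 ratio of red over green is derived from it. That ratio was taken from the scanner files for the main fit of the non-self arrays. It matched the ratio in the series table to 1.07e-07 (log10), so the alternative that used the series table repeats the same values. The protocol label mentions dye-reversed replicates, but no non-self array is labelled as one.

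For self-self arrays both channels were averaged and scaled to NEU, a sum of 1000000 per array over gene probes. For non-self arrays log2 red over green was used. Outlier-marked spots and control spots were left out. Each scale was fitted with limma 3.58.1 (R 4.3.3), lmFit and eBayes with trend, 1 mean per array type, over 8 self-self arrays or over all 12 arrays. P-values were Benjamini-Hochberg adjusted over all probes, and the threshold was 0.05. Residual spread is shared between types and each type has 2 arrays, which limits precision. In simulated data of root/leaf, 200 of 19126 probes were given known changes. Of log2 changes of 0.5, 1 and 2, 64%, 90% and 88% were recovered on non-self arrays, and 0%, 1% and 22% on self-self arrays. In the data far more probes were called (69.6% and 32% for root/leaf), which alters the adjusted threshold. The simulated rates therefore do not carry over to these data. With 2 arrays per type, a self-self difference that did not pass is still weak evidence of equal levels. Gene names came from the arrays, and 21191 of 21500 matched a locus of RefSeq's TAIR10.1 table. Array coordinates were not used because the array's genome build was not given in the sources used here.

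All members are named. From the microtubule list, the 6 largest ratios among called probes well above background were to be named, and for likeness the nearest gene of each member. Other list genes were named as examples after their values were seen. The members and lists were chosen with earlier results of these data known. Python 3 scripts drew the plots. The Affymetrix comparison planned for these genes was not run because no table used here pairs its probe sets with genes. Tag counts were not analysed here.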

Additional observations from a re-analysis of the deposited data

Results flagged for a closer look

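The ratio of red over green signal with the same RNA in both channels differed between inflorescence and the other self-self tissues for 5 beta-tubulin genes. The difference, inflorescence minus the mean of callus, leaf and root in log2, was 0.61 for TUB4 (limma adjusted p = 0.00141), 0.58 for TUB9 (adjusted p = 0.00375) and 0.54 for TUB7 (adjusted p = 0.0015). It was 0.41 for TUB6 (adjusted p = 0.0208) and 0.36 for TUB5 (adjusted p = 0.00444). In each case both inflorescence arrays lay above the means of the other tissues, and 4.64% of all probes passed this test. TUB1, TUB3 and TUB8 did not pass, and TUB2 had no value. The cause was not tested.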

How the results depend on the processing

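No called member value changed direction under 12 alternatives per non-self comparison and 17 per self-self comparison (11 for TUB2 on non-self arrays). Of 39 member calls, 24 held under every alternative. Among these alternatives, the series table of the non-self arrays repeats the main values. Leaving out saturated spots could change member p-values only through other probes, since no member spot was saturated. Of 1081 member values, 43 lost a call and 14 gained one. Callus against leaf gave 5 calls, 3 with no scaling between arrays and 2 to 3 with 1 array left out. Callus against inflorescence gave 5 calls and 8 in the red channel only, where TUB2, TUB4 and TUB7 were added. Of these, TUB4 and TUB7 are among the genes flagged above for a higher red over green ratio on inflorescence arrays. In the green channel only there were 5 calls. With 1 array left out, inflorescence against leaf gave 3 to 5 calls (main 5) and inflorescence against root 1 to 4 (main 3); the 3 came without inflorescence array B and the 1 without either inflorescence array. The largest shift in the split of all calls was callus against root, where 37.6% of called probes were higher in callus, 52.9% without scaling and 53.7% with quantile normalization; the members' calls were 1 higher and 5 lower, and 1 higher and 3 lower without scaling. With the replicate block the counts were 5 and 8 on root/leaf and silique/inflorescence non-self arrays, 2, 5, 5, 5, 3 and 4 on the self-self arrays in the order root/leaf, callus/leaf, inflorescence/leaf, callus/root, inflorescence/root and callus/inflorescence; deviations of same-lettered arrays correlated between -0.19 and 0.17, so A and B are shared letters only. The dye term of the compared tissues and keeping outlier-marked spots were chosen after seeing the data, whereas the dye term of all self-self arrays was planned. The Affymetrix alternative was not run.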
